A study of Homo sapiens with 12 samples.

Results

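SK-UT-1B is an established uterine leiomyosarcoma (uLMS) cell line, and this report compares its gene expression after 72 h with MK-0752, gemcitabine, and docetaxel given together (the combination) with that after DMSO vehicle control. The combination libraries are 3-1 and 3-3 and the DMSO libraries are 4-1 and 4-2, that is, 4 of the 12 libraries of the study, which otherwise come from a second uLMS line, SK-LMS-1. The drugs were given at the IC30 of the combination, in which each drug had a lower dose than its IC30 alone. The vehicle was given at the same volume, and all cells were wild type and grown in the same serum-containing medium. The comparison asks which genes differ between cells given all 3 drugs and cells given vehicle. No SK-UT-1B library here had gemcitabine and docetaxel without MK-0752, or MK-0752 alone, so the share of each drug in a change was not measured. Genes were taken as well counted when their mean reached 200 raw counts in the DMSO group or in the combination group, which held for 10527 of the 60649 genes in the table. Of these, 9830 reached that mean in both groups, 406 only after the combination, and 291 only after DMSO.

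MK-0752 inhibits gamma secretase, the membrane protease that cuts Notch receptors after ligand binding and so frees their intracellular domain, which enters the nucleus, joins the DNA-binding protein RBPJ, and switches on genes such as HES1. Gemcitabine is a nucleoside analog that stops DNA chains from being extended and inhibits ribonucleotide reductase, the enzyme that makes deoxynucleotides. Docetaxel stabilizes microtubules and holds dividing cells in mitosis. The treatments that were sequenced had been selected by the study because HES1 fell by qPCR, so HES1 is not an outcome chosen without regard to its direction.

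Each library held between 25250057 and 34452037 reads counted on genes. Levels are given as CPM, the raw counts per 1000000 counts of the library after TMM scaling, and changes as the log2 fold change (log2FC) of the combination against DMSO with its standard error (SE). The log2FC and adjusted p come from edgeR's quasi-likelihood test, adjusted over 21114 genes. That test gives no SE, so the SE was derived as the absolute log2FC divided by the square root of its F statistic. It can be unsteady where F is small. Gene coordinates are those of GENCODE v44 on hg38. All 12 libraries of both lines were fitted together, so the spread behind the p-values was pooled over 6 groups of 2 libraries. The labels do not say whether the libraries of a group came from separate cultures, so the p-values measure only the spread between libraries. Where 1 library was left out, its group held 1 library and the spread came from the other groups. The treatment also coincides with the first number in the library names, which is 4 for DMSO and 3 for the combination, so an effect of that number and of the drugs cannot be told apart. Between DMSO sets of SK-LMS-1 with the first numbers 4 and 2, edgeR found 0 genes with an adjusted p under 0.05 and 1197 with an unadjusted p under 0.05 (5.67% of the tested genes). That contrast is in another line and does not include the number 3, so it cannot tell whether the number matters in SK-UT-1B. Each RNA molecule was read an estimated 15.9 to 22.9 times per library, so 200 counts stand for about 8.73 to 12.6 molecules. Library 3-1 stood apart from the other 3 libraries, with values given after the gene lists, and 23 of the 50 called well-counted genes remained called without it. Of 11 defining smooth muscle markers, 3 (DES, SMTN, and CALD1) were well counted, and of a wider list of 21 genes that includes regulators and broadly expressed contractile genes 10 were, with a sum of 491 to 615 CPM per library. MYOCD, the master regulator of smooth muscle genes, had 0 counts in all 4 libraries and MYH11, the smooth muscle myosin, had at most 2. A list of 12 leukocyte markers summed to at most 1.20 CPM in a library and a list of 8 endothelial markers to at most 3.29 CPM, with 0 well counted in either. A list of 20 epithelial markers summed to 72.3 to 105 CPM, with CDH3 and DSP well counted, while the 6 defining ones among them (CDH1, EPCAM, and 4 keratins) summed to at most 1.14 CPM. Of the fibroblast markers, COL3A1, COL1A1, and PDGFRA were well counted and DCN had 0 counts.

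After exposure to the combination, EGR1, NDRG1, PARP14, and CXCR4 were among the upregulated genes, and CCNA2, ZWINT, RRM1, RRM2, and the histone genes H2BC5 and H3C2 were among the lower genes. Differentially expressed genes required a log2FC of at least 1 in either direction and an adjusted p under 0.05. Among the well-counted genes, 37 were upregulated (0.351%) and 13 downregulated (0.123%), and over all 21114 tested genes the numbers were 83 (0.393%) and 35 (0.166%). Among well-counted genes these numbers were 0 and 0 with edgeR on the 4 libraries alone (1245 of the 16112 genes then tested had an unadjusted p under 0.05), 76 and 27 with DESeq2 on 12 libraries, and, with 1 library left out, 40 and 35 without 3-1, 306 and 310 without 3-3, 82 and 46 without DMSO 4-1, and 150 and 39 without DMSO 4-2. Of the 37 upregulated genes, 13 reached the mean of 200 counts only after the combination, and 4 of the 13 downregulated genes reached it only after DMSO, so these had to differ to be both well counted and low in the other group. Dropping the requirement on fold left 51 genes that were higher (0.484%) and 31 that were lower (0.294%). In all of these 82 genes (0.779%), both combination libraries lay on the same side of both DMSO libraries, as they did in 21.5% of the well-counted genes in the higher and in 21.4% in the lower direction. The median log2FC of all well-counted genes was 0.01.

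**Figure D1:**
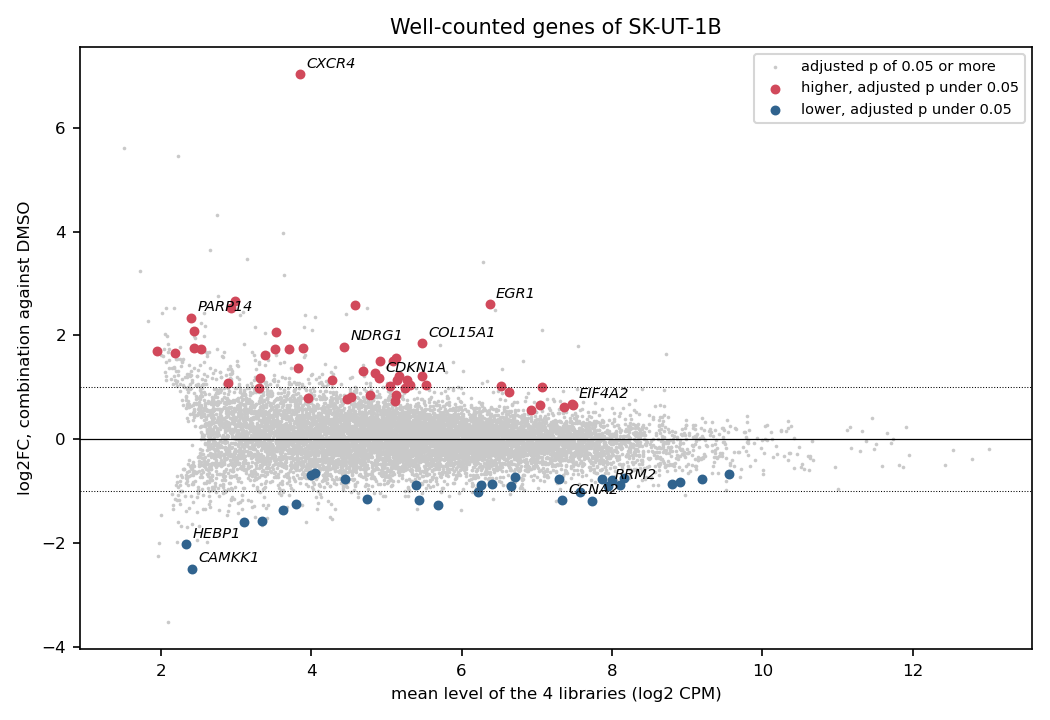
Change against level of the well-counted genes in SK-UT-1B, with the mean of the 4 libraries in log2 CPM on the x axis, the log2FC of the combination against DMSO on the y axis, and 1 point per gene. Red and blue points are the 51 higher and 31 lower genes with an adjusted p under 0.05, and dotted lines mark a log2FC of 1 and -1. The upregulated genes sit mostly at low to middle levels, while most of the downregulated genes named for cell division and histones sit at higher levels.

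EGR1 (chr5:138465479-138469303, plus strand), an immediate early transcription factor, was at 23.5 and 23.2 CPM after DMSO and at 199 and 86.2 CPM after the combination, a log2FC of 2.61 ± 0.31 (SE, n = 2 per group, edgeR adjusted p = 0.00160). Both treated libraries were far above both controls, with 3-1 the higher, and the log2FC was 1.85 without 3-1. NDRG1 (chr8:133237175-133302022, minus strand), a stress and hypoxia responsive gene, was at 8.62 and 10.9 CPM after DMSO and at 35.5 and 31.8 CPM after the combination (log2FC 1.78 ± 0.19, edgeR adjusted p = 5.52e-05). Here the treated libraries lay close together. AK4, a mitochondrial adenylate kinase that hypoxia induces, went from 7.69 and 5.84 CPM to 17.9 and 27.8 CPM (log2FC 1.76 ± 0.27, edgeR adjusted p = 0.00263), with 3-3 the higher of the treated libraries. BHLHE40, a transcriptional repressor that hypoxia and other stresses induce, went from 24.6 and 28.8 CPM to 73.7 and 50.4 CPM (log2FC 1.22 ± 0.21, edgeR adjusted p = 0.00658), with a log2FC of 0.89 without 3-1. NDUFA4L2, a mitochondrial protein that hypoxia also induces, was upregulated too (log2FC 2.60 ± 0.59, edgeR adjusted p = 0.0454), but its edgeR adjusted p was 0.709 without library 3-1, and it overlaps SHMT2 on the other strand, which makes its counts uncertain because the strand setting of the counts is not given in the sources used here.

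CDKN1A (chr6:36676460-36687337, plus strand), the p53 target that encodes the cyclin-dependent kinase inhibitor p21, was at 22.2 and 14.5 CPM after DMSO and at 44.3 and 38.6 CPM after the combination (log2FC 1.18 ± 0.26, edgeR adjusted p = 0.0391). The groups did not overlap, but without DMSO 4-2 the log2FC was 0.90 and the edgeR adjusted p 0.140. TNFRSF10D, a decoy receptor for the death ligand TRAIL, rose from 4.29 and 6.23 CPM to 18.7 and 16.6 CPM (log2FC 1.74 ± 0.29, edgeR adjusted p = 0.00462), and GSDME, which forms pores in dying cells once a caspase has cut it, rose from 3.57 and 5.94 CPM to 11.1 and 9.12 CPM (log2FC 1.09 ± 0.24, edgeR adjusted p = 0.0431). For GSDME the log2FC was 0.75 without DMSO 4-1 (edgeR adjusted p = 0.275) and 0.90 without 3-1 (edgeR adjusted p = 0.0331). Among the 40 well-counted p53 targets, CDKN1A was the only one called (against 0.351% of all well-counted genes), 11 lay above both controls (27.5%, against 21.5%), and 2 lay below (5.00%, against 21.4%). TP53INP1, a p53 target of the stress response, was at 60.3 and 69.3 CPM after DMSO and at 104 and 138 CPM after the combination (log2FC 0.90 ± 0.23, edgeR adjusted p = 0.0831), and thus did not pass.

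CXCR4 (chr2:136114349-136119177, minus strand), the receptor of the chemokine CXCL12, had 13 and 0 counts after DMSO and 1426 and 519 counts after the combination, or 0.450 and 0 CPM against 39.0 and 18.4 CPM. The 13 control counts amount to less than a single molecule at 22.9 reads per molecule, and the fitted log2FC of 7.04 ± 1.11 (edgeR adjusted p = 0.00366) depends on the prior count that the fit adds near 0, and it lay between 5.98 and 12.9 when a library was left out. COL15A1, a collagen of basement membranes, was at 19.5 and 19.3 CPM after DMSO and at 97.7 and 42.0 CPM after the combination (log2FC 1.85 ± 0.40, edgeR adjusted p = 0.0353, and 0.411 without library 3-1). SERPINF1, a secreted antiangiogenic serpin, went from 3.53 and 6.68 CPM to 14.9 and 16.6 CPM (log2FC 1.62 ± 0.31, edgeR adjusted p = 0.0146). SEMA3D, a secreted guidance ligand, went from 1.73 and 2.65 CPM to 8.85 and 5.08 CPM (log2FC 1.66 ± 0.34, edgeR adjusted p = 0.0275), whereas SEMA7A, a membrane-anchored semaphorin, fell from 15.2 and 10.6 CPM to 3.17 and 5.39 CPM (log2FC -1.59 ± 0.26, edgeR adjusted p = 0.00519). MMP2, a protease that degrades type IV collagen, was higher by a smaller amount (27.3 and 25 CPM against 44.1 and 42.6 CPM, log2FC 0.73 ± 0.14, edgeR adjusted p = 0.0135). So was PLOD2, a lysyl hydroxylase of collagen (log2FC 0.86 ± 0.19, edgeR adjusted p = 0.0384). COL1A1, a chain of type I collagen, was lower (21.8 and 18.8 CPM against 13.1 and 12.6 CPM, log2FC -0.66 ± 0.14, edgeR adjusted p = 0.0293), as was P4HB, the protein disulfide isomerase that is also the beta subunit of collagen prolyl hydroxylase (log2FC -0.67 ± 0.14, edgeR adjusted p = 0.0344). COL3A1, the most abundant of the collagens named here, was at 2988 and 3051 CPM after DMSO and at 2815 and 2882 CPM after the combination (log2FC -0.08 ± 0.16, edgeR adjusted p = 1.00). Without DMSO 4-1, the edgeR adjusted p was 0.112 for SERPINF1, 0.207 for PLOD2, and 0.168 for COL1A1. It was 0.0775 for MMP2 without DMSO 4-2 and 0.0586 for P4HB without library 3-1.

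PARP14 (chr3:122680839-122730840, plus strand), an ADP-ribosyltransferase that interferon induces, was at 1.21 and 2.23 CPM after DMSO and at 8.12 and 9.65 CPM after the combination (log2FC 2.34 ± 0.24), and its edgeR adjusted p of 3.54e-05 was the smallest of all well-counted genes. NMNAT1, which makes NAD in the nucleus, went from 2.53 and 1.80 CPM to 17.9 and 9.58 CPM (log2FC 2.67 ± 0.44, edgeR adjusted p = 0.00440). NUDT16, a nucleotide hydrolase, went from 1.38 and 3.55 CPM to 8.44 and 8.38 CPM (log2FC 1.75 ± 0.33, edgeR adjusted p = 0.0145, and 0.0619 without DMSO 4-1). All 3 were low after DMSO and reached the count minimum only through the combination libraries. Of the 21 well-counted interferon-stimulated genes, PARP14 was the only one called (against 0.351% of all well-counted genes), 5 lay above both DMSO libraries (23.8%, against 21.5% of all well-counted genes) and 0 below. Their median log2FC was 0.28, and it was 0.11 without library 3-1 and 0.16 without 3-3. ABCA1, the cholesterol efflux pump, was upregulated (log2FC 1.14 ± 0.24, edgeR adjusted p = 0.0374, and 0.310 without library 3-1), as were GPNMB, a glycoprotein of lysosomes (log2FC 1.18 ± 0.22, edgeR adjusted p = 0.0118), FCGRT, the neonatal Fc receptor (log2FC 1.38 ± 0.26, edgeR adjusted p = 0.0122), and ERAP2, which trims peptides for HLA class I (log2FC 1.15 ± 0.23, edgeR adjusted p = 0.0177). The edgeR adjusted p was 0.0533 for GPNMB without DMSO 4-1 and 0.0529 for FCGRT without DMSO 4-2, and the log2FC of ERAP2 was 0.93 without 3-1 and 0.99 without DMSO 4-1.

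**Figure D2:**
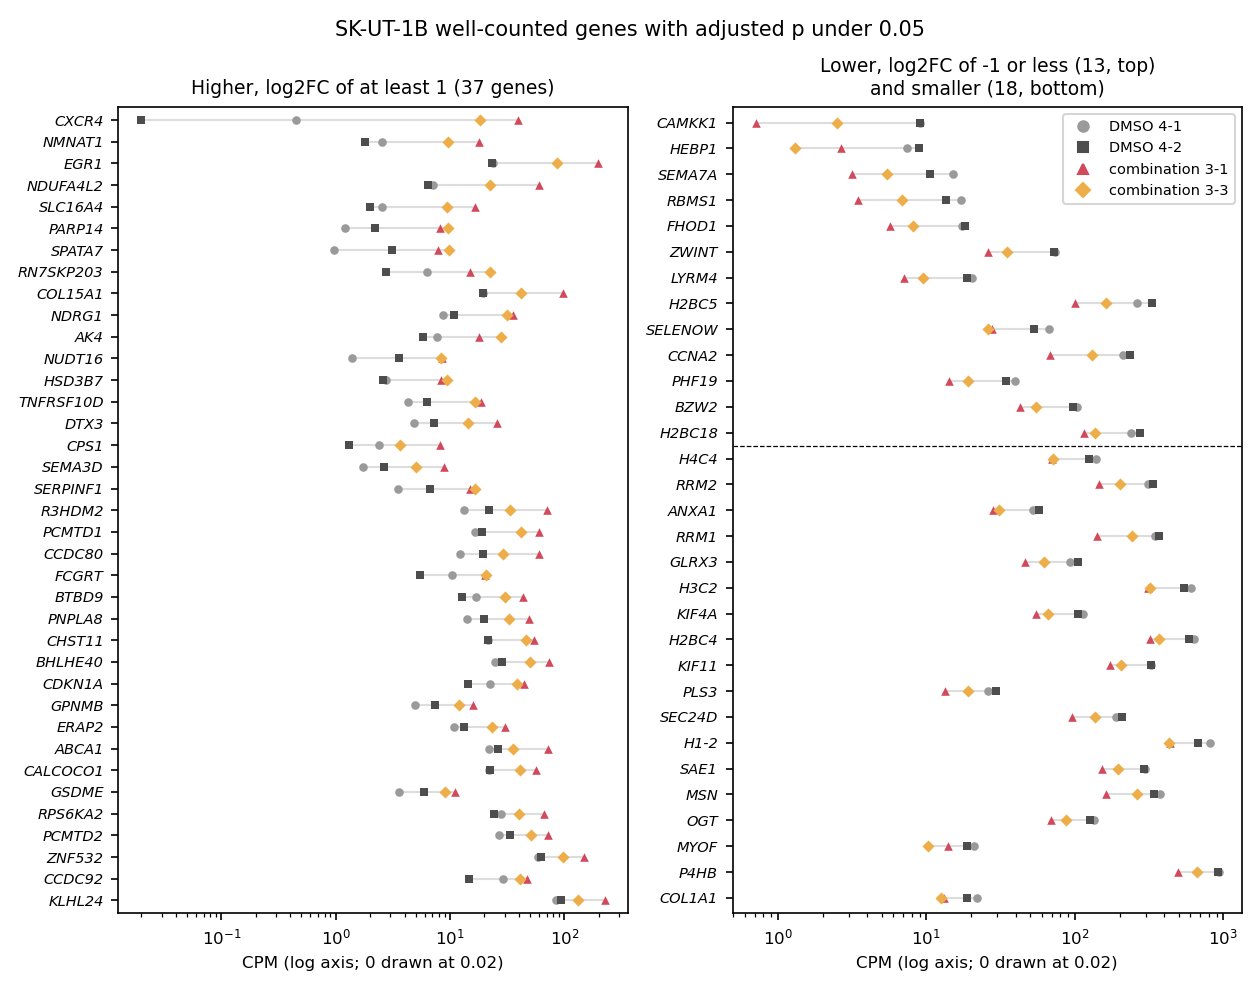
CPM of each library (log axis, with 0 drawn at 0.02) for the 37 upregulated genes on the left and for the 31 lower genes on the right, where the dashed line separates the 13 with a log2FC of -1 or less from the other 18. Gray symbols are DMSO libraries, the triangle is combination library 3-1, and the diamond is 3-3. In every row the treated symbols lie on one side of the controls, and the triangle is the farther one in most rows.

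CCNA2 (chr4:121816444-121823883, minus strand) encodes cyclin A2, which drives S phase and the entry into mitosis. It was at 211 and 237 CPM after DMSO and at 67.6 and 131 CPM after the combination (log2FC -1.17 ± 0.25, edgeR adjusted p = 0.0365, with a log2FC of -0.80 without 3-1), and it overlaps EXOSC9 on the other strand. ZWINT, a kinetochore protein, was at 73.2 and 72.8 CPM after DMSO and at 25.8 and 35.1 CPM after the combination (log2FC -1.26 ± 0.29, edgeR adjusted p = 0.0489). The controls lay close together and both treated libraries were well below them. RRM2 (chr2:10120698-10211725, plus strand), the regulatory subunit of ribonucleotide reductase, was at 310 and 335 CPM after DMSO and at 146 and 200 CPM after the combination (log2FC -0.90 ± 0.17, edgeR adjusted p = 0.0139). Its partner RRM1, the catalytic subunit, was at 345 and 369 CPM against 141 and 243 CPM (log2FC -0.89 ± 0.20, edgeR adjusted p = 0.0417). RRM1 and RRM2 were therefore lower, by similar amounts. RRM2B, an alternative to RRM2 in the same enzyme and the highest of the nucleotide synthesis list by log2FC, was not lower (log2FC 0.10). KIF11, the kinesin that pushes spindle poles apart, was at 324 and 324 CPM after DMSO and at 172 and 204 CPM after the combination (log2FC -0.78 ± 0.18, edgeR adjusted p = 0.0454), and KIF4A, a chromosome-bound kinesin, was at 113 and 106 CPM against 54.9 and 66.0 CPM (log2FC -0.86 ± 0.19, edgeR adjusted p = 0.0402), with PDZD11 overlapping it on the other strand. Without library 3-1, the edgeR adjusted p was 0.170 for ZWINT, 0.115 for RRM1, and 0.0981 for KIF4A, and the log2FC kept its sign in each. Without DMSO 4-1 it was 0.0720 for ZWINT and 0.0921 for KIF4A, and without DMSO 4-2 it was 0.0652 for ZWINT.

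The promoters of the lower genes were searched for 6 motifs on both strands, among them CCAAT, the letters that the factor NF-Y binds and that many cell cycle promoters hold. CCAAT was found on either strand in the 300 bases from 250 before to 50 after the start of 18 of the 26 lower genes with a RefSeq promoter (69.2%), of 9 of the 39 higher genes (23.1%), of 37.5% of the 8549 well-counted genes with a promoter, and of 35.7% of all 27305 promoters. The other motifs were GTGGGAA (RBPJ), TGANTCA (AP-1), TTTCGCGC (E2F), TTGCATCA (ATF4), and TCACNCCAC (SREBP), none of which contains the letters CCAAT on either strand, and AP-1 was found in 3 of the 39 higher genes (7.69%), 0 of the 26 lower genes, 3.79% of the well-counted genes with a promoter, and 7.76% of all promoters. No test was made of these shares, and a match to these letters is a description, not a binding site. The 250 bases before the start of CCNA2, ZWINT, KIF11, and RRM2 are shown because these genes stand for the lower cell division genes. They are from RefSeq on GRCh38.p14, written 5′ to 3′ along the gene, with CCAAT (or ATTGG where it lies on the other strand) in capitals, and in ZWINT also a match to GTGGGAA, the letters that RBPJ binds.
CCNA2 promoter, chr4:121823884-121824133 (minus strand): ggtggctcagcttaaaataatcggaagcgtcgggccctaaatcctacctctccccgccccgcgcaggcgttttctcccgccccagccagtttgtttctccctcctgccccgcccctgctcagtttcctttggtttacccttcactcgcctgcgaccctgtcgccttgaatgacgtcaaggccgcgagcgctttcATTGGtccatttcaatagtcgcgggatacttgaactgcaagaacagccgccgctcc
ZWINT promoter, chr10:56361260-56361509 (minus strand): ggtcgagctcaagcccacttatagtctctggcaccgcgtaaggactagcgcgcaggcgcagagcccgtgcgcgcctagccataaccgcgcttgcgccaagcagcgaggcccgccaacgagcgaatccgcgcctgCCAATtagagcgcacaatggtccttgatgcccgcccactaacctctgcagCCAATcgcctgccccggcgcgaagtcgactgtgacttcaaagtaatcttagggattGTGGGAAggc
KIF11 promoter, chr10:92592880-92593129 (plus strand): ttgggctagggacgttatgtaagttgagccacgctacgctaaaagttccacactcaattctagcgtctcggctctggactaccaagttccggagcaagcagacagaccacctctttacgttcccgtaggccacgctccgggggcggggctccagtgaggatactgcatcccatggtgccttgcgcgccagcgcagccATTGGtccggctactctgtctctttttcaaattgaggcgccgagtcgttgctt
RRM2 promoter, chr2:10122489-10122738 (plus strand): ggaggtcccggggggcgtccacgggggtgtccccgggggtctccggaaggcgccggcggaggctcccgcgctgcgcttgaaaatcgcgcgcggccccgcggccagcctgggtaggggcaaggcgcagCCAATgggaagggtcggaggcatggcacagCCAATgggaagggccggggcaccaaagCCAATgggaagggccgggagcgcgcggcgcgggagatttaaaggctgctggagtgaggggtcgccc
In these promoters the capitals begin 56 bases before the start in CCNA2, 53 in KIF11, 116 and 66 in ZWINT (CCAAT), and 123, 93, and 66 in RRM2.

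Most genes of the cell division lists lay below both controls without passing the test one by one. Of the 69 well-counted genes of mitosis and the spindle, 58 lay below both DMSO libraries (84.1%, against 21.4% of all well-counted genes), 0 lay above, and the median log2FC was -0.71. KIF4A and KIF11 were the 2 with an adjusted p under 0.05 (0.294% of all well-counted genes were lower with such a p), and ZWINT is not in this list. FOXM1, the transcription factor of mitotic genes, was at 352 and 301 CPM after DMSO and at 185 and 214 CPM after the combination (log2FC -0.71 ± 0.16, edgeR adjusted p = 0.0503). Of the 51 well-counted DNA replication genes, 40 lay below both controls and 1 above, with a median log2FC of -0.55, and 0 had an adjusted p under 0.05. Values in this group were 311 and 273 CPM against 168 and 205 CPM for MCM7, a subunit of the replicative helicase (log2FC -0.65 ± 0.17, edgeR adjusted p = 0.0886), and 162 and 131 CPM against 64.6 and 87.8 CPM for CDC6, which loads that helicase (log2FC -0.95 ± 0.27, edgeR adjusted p = 0.131). Of the 30 well-counted nucleotide synthesis genes, 19 lay below both controls and 0 above, with a median log2FC of -0.45, and RRM1 and RRM2 were the 2 that passed. DUT, which removes dUTP, was at 97.3 and 86.7 CPM against 39.9 and 59.9 CPM (log2FC -0.88 ± 0.22, edgeR adjusted p = 0.0805). Summed over the list, mitosis genes stood at 10943 and 12055 CPM after DMSO and at 7033 and 8888 CPM after the combination. The medians of these lists were nearer to 0 without library 3-1, at -0.46 for mitosis, -0.39 for DNA replication, and -0.36 for nucleotide synthesis, and farther from 0 without library 3-3, at -0.91, -0.78, and -0.61. Cyclin D1 (CCND1), which acts earlier in the cycle, was at 241 and 226 CPM after DMSO and at 227 and 260 CPM after the combination (log2FC 0.06 ± 0.12, edgeR adjusted p = 1.00). Of the 29 well-counted G1 and S cyclins and inhibitors, 14 lay below both controls (48.3%, against 21.4% of all well-counted genes) and 4 above. Their median log2FC was -0.25, and CCNA2 and CDKN1A were the lowest and highest by log2FC.

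Replication-dependent histone genes, which are transcribed when DNA is copied and whose mRNAs normally end in a stem-loop rather than a poly(A) tail, had mostly lower values. Of 30 well-counted members, 26 lay below both DMSO libraries (86.7%, against 21.4% of all well-counted genes) and 1 above, and the median log2FC was -0.84. It stayed at -0.84 without library 3-1 and was -0.86 without 3-3, so in this list the treated libraries agreed. Together these genes took 0.824% and 0.815% of all counts after DMSO and 0.524% and 0.509% after the combination. H2BC5 (260 and 333 CPM against 99.7 and 162 CPM, log2FC -1.18 ± 0.24, edgeR adjusted p = 0.0362) and H2BC18 (238 and 274 CPM against 116 and 136 CPM, log2FC -1.02 ± 0.21, edgeR adjusted p = 0.0296) were downregulated, and FCGR1A overlaps H2BC18 on the other strand. H3C2 was at 603 and 547 CPM against 311 and 322 CPM (log2FC -0.86 ± 0.14, edgeR adjusted p = 0.00511), and H4C4, H1-2, and H2BC4 were the others with an adjusted p under 0.05, with a log2FC of -0.90, -0.77, and -0.83. Without DMSO 4-1 the edgeR adjusted p was 0.0680 for H4C4 and 0.106 for H1-2, and without DMSO 4-2 it was 0.0603 for H2BC18. The log2FC of H2BC5 was -0.91 without 3-1 and that of H2BC18 was -0.94. Histone genes are near-identical copies of each other, so how reads were divided among single members is uncertain, while the sum over the list is less affected. CCAAT was found in the promoters of 22 of 26 well-counted members (84.6%), and TTTCGCGC, an E2F motif, in 5 (19.2%, against 1.10% of the well-counted genes with a promoter and 0.546% of all promoters). The 250 bases before the start of the downregulated pair are shown because they are the called histones, with CCAAT or ATTGG in capitals.
H2BC5 promoter, chr6:26157871-26158120 (plus strand): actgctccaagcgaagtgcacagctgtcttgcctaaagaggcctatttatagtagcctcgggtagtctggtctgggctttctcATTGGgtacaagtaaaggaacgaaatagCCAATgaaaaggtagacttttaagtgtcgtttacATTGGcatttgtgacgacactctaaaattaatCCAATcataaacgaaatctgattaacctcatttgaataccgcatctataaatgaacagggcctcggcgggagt
H2BC18 promoter, chr1:149812371-149812620 (minus strand): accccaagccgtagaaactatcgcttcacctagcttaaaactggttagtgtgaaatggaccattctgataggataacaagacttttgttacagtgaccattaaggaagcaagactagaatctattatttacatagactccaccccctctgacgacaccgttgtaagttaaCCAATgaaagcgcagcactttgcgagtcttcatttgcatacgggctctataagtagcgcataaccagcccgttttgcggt
H2BC5 has 4 matches and H2BC18 has 1.

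The downregulated genes outside cell division had varied functions. CAMKK1, a kinase that responds to calcium, was at 9.10 and 9.02 CPM after DMSO and at 0.710 and 2.52 CPM after the combination (log2FC -2.50 ± 0.53, edgeR adjusted p = 0.0344, and 0.147 without library 3-1). HEBP1, a heme-binding protein, was at 7.41 and 8.91 CPM against 2.65 and 1.31 CPM (log2FC -2.02 ± 0.30, edgeR adjusted p = 0.00221, with a log2FC of -2.66 without 3-1). RBMS1, an RNA-binding protein, was at 17 and 13.6 CPM against 3.44 and 6.81 CPM (log2FC -1.59 ± 0.26, edgeR adjusted p = 0.00420). SELENOW, a small selenoprotein, was at 67.0 and 53.4 CPM against 27.5 and 25.9 CPM (log2FC -1.17 ± 0.22, edgeR adjusted p = 0.0130), PHF19, a partner of the Polycomb complex that methylates histone H3, at 39.4 and 34.3 CPM against 14.1 and 19 CPM (log2FC -1.15 ± 0.26, edgeR adjusted p = 0.0417), and LYRM4, which helps to build iron-sulfur clusters, at 20.3 and 18.9 CPM against 7.05 and 9.51 CPM (log2FC -1.24 ± 0.28, edgeR adjusted p = 0.0408). GLRX3, another protein of iron-sulfur handling, had a log2FC of -0.88 ± 0.20 (edgeR adjusted p = 0.0499). Lower by less than 1 on the log2 scale were MSN, which links actin to the membrane (373 and 342 CPM against 163 and 262 CPM, log2FC -0.75 ± 0.16, edgeR adjusted p = 0.0384), and the actin bundler PLS3 (log2FC -0.77 ± 0.17, edgeR adjusted p = 0.0391). FHOD1, a formin that assembles actin, was downregulated (log2FC -1.37 ± 0.31, edgeR adjusted p = 0.0423), with SLC9A5 overlapping it on the other strand. Without library 3-1 the edgeR adjusted p was 0.0977 for LYRM4, 0.192 for GLRX3, 0.0575 for MSN, 0.0677 for PLS3, and 0.149 for FHOD1, and the log2FC of PHF19 was -0.98. Without DMSO 4-2 the edgeR adjusted p of GLRX3 was 0.160.

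The combination holds a gamma secretase inhibitor, and the Notch genes showed no call among ligands, receptors, or the protease itself. HES1 (chr3:194136148-194138732, plus strand), the classic Notch target and a repressor of differentiation, was at 8.38 and 7.21 CPM after DMSO and at 2.51 and 2.27 CPM after the combination. Both treated libraries lay below both controls. However, the log2FC of -1.70 ± 0.49 had an edgeR adjusted p of 0.141, so HES1 did not pass the test over all genes. Its raw counts were 242 and 272 against 92 and 64, so HES1 was well counted only through the DMSO libraries. The 250 bases before its start are shown because HES1 is the readout of the inhibitor, with a match to GTGGGAA 85 bases before the start and 3 CCAAT or ATTGG matches in capitals.
HES1 promoter, chr3:194135898-194136147 (plus strand): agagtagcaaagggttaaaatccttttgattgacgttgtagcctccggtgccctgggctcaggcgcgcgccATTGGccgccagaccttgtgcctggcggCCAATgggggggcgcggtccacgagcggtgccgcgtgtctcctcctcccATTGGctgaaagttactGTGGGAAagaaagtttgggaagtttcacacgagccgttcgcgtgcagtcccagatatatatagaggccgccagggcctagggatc
GTGGGAA was found in 2 of the 8 well-counted Notch target genes with a promoter (25%), HES1 among them. It was found in 5.45% of the well-counted genes with a promoter and in 6.28% of all promoters. NRARP, a feedback inhibitor that Notch induces, was at 7.41 and 9.26 CPM after DMSO and at 6.31 and 5.57 CPM after the combination (log2FC -0.49 ± 0.94, edgeR adjusted p = 1.00). HEYL, a relative of HES1, was at 16.4 and 12.9 CPM against 12.7 and 15.3 CPM (log2FC -0.07 ± 1.19, edgeR adjusted p = 1.00), and here the groups overlapped. Among the 12 well-counted genes of the Notch target list, 5 lay below both controls (41.7%, against 21.4% of all well-counted genes), 3 above (25%, against 21.5%), and the median log2FC was 0.00, with 0.08 without library 3-1 and -0.29 without 3-3. CDKN1A, which is also a p53 target, was the one that passed, against 0.351% of all well-counted genes called upregulated. ID1, an inhibitor of differentiation, was at 77.5 and 74.3 CPM against 39.3 and 45.5 CPM (log2FC -0.84 ± 0.27, edgeR adjusted p = 0.186), and MYC was at 418 and 349 CPM against 405 and 494 CPM (log2FC 0.23 ± 0.16, edgeR adjusted p = 0.699).

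Among the receptors, NOTCH2 was the most highly counted at 286 and 282 CPM after DMSO and 350 and 312 CPM after the combination (log2FC 0.22 ± 0.13, edgeR adjusted p = 0.637). NOTCH1 was at 119 and 89.3 CPM against 123 and 135 CPM (log2FC 0.31 ± 0.25, edgeR adjusted p = 0.764), and NOTCH3 at 40.8 and 26.4 CPM against 26.2 and 48.1 CPM (log2FC 0.14 ± 1.01, edgeR adjusted p = 1.00). The ligands JAG1 and JAG2 had a log2FC of -0.23 ± 0.20 and -0.27 ± 0.84, and each had at least 1 treated library within the range of the controls. Of the 10 well-counted genes of gamma secretase and the other proteases that cut Notch or its relatives, 3 lay above both controls (30.0%, against 21.5% of all well-counted genes) and 1 below. BACE2, a protease related to those that cut the amyloid precursor, was at 51.4 and 41.2 CPM after DMSO and at 25.6 and 40.4 CPM after the combination (log2FC -0.49 ± 0.23, edgeR adjusted p = 0.459). ADAM10, the sheddase that makes the first cut, was at 212 and 231 CPM against 231 and 222 CPM (log2FC 0.03 ± 0.15, edgeR adjusted p = 1.00). Of the 15 well-counted Notch modulators, 5 lay above both controls (33.3%) and 1 below (6.67%, against 21.4% of all well-counted genes). DTX3, a Deltex family ubiquitin ligase, was upregulated (4.88 and 7.21 CPM against 25.9 and 14.4 CPM, log2FC 1.73 ± 0.34, edgeR adjusted p = 0.0177, 0.122 without library 3-1, and 0.0556 without DMSO 4-1). Its relative DTX3L, the partner of the interferon-induced enzyme PARP9, was at 12.6 and 6.79 CPM against 26.8 and 16.3 CPM (log2FC 1.16 ± 0.27, edgeR adjusted p = 0.0503). NUMB, an inhibitor of Notch signaling, was at 24.8 and 23.7 CPM against 36.9 and 39.3 CPM (log2FC 0.65 ± 0.18, edgeR adjusted p = 0.122). DTX4, also of the Deltex family and the lowest of this list by log2FC, was at 16.1 and 11.1 CPM against 6.31 and 7.74 CPM (log2FC -0.95 ± 1.12, edgeR adjusted p = 0.955).

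The proteasome, respiratory chain, and spliceosome lists had medians below 0, again without single genes that passed. Of 30 well-counted proteasome subunits, 19 lay below both controls (63.3%, against 21.4% of all well-counted genes) and 0 above (median log2FC -0.46), and of 71 nuclear-encoded subunits and factors of the respiratory chain 38 lay below and 1 above (median log2FC -0.40). PSMD1, a subunit of the proteasome cap, was at 218 and 241 CPM after DMSO and at 138 and 151 CPM after the combination (log2FC -0.67 ± 0.16, edgeR adjusted p = 0.0668). CYCS, cytochrome c, was at 290 and 311 CPM against 160 and 223 CPM (log2FC -0.65 ± 0.17, edgeR adjusted p = 0.0983), and CS, citrate synthase, at 371 and 337 CPM against 217 and 260 CPM (log2FC -0.57 ± 0.14, edgeR adjusted p = 0.0822). Of 118 well-counted spliceosome genes, 58 lay below both controls and 4 above, with a median log2FC of -0.25 and 0 members with an adjusted p under 0.05. HNRNPD, an RNA-binding protein of that list, was at 362 and 490 CPM against 202 and 291 CPM (log2FC -0.79 ± 0.19, edgeR adjusted p = 0.0753), and the splicing factor SRSF1 at 170 and 165 CPM against 75.3 and 119 CPM (log2FC -0.79 ± 0.21, edgeR adjusted p = 0.0983). Cytosolic ribosomal protein genes did not share this direction, with 21 of 78 above both controls (26.9%, against 21.5% of all well-counted genes), 5 below, and a median log2FC of 0.03. That median was -0.01 without DMSO 4-1, 0.14 without DMSO 4-2, 0.08 without library 3-1, and -0.05 without 3-3. The medians of the proteasome, respiratory chain, and spliceosome were -0.24, -0.20, and -0.20 without library 3-1 and -0.76, -0.71, and -0.40 without 3-3. Short transcripts were lower as a class in this comparison, with a median log2FC of -0.11 in the shortest 2631 well-counted genes and 0.09 in the longest 2631. After transcript length, GC percent, and mean level had been regressed out, the medians were -0.31 for the proteasome, -0.27 for the respiratory chain, -0.19 for the spliceosome, -0.58 for replication-dependent histones, and -0.62 for mitosis, and it was 0.26 for ribosomal proteins. Mitochondrially encoded genes took 5.80% and 4.66% of all counts after DMSO and 3.59% and 5.47% after the combination, with 3-1 below both controls and 3-3 within their range.

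**Figure D3:**
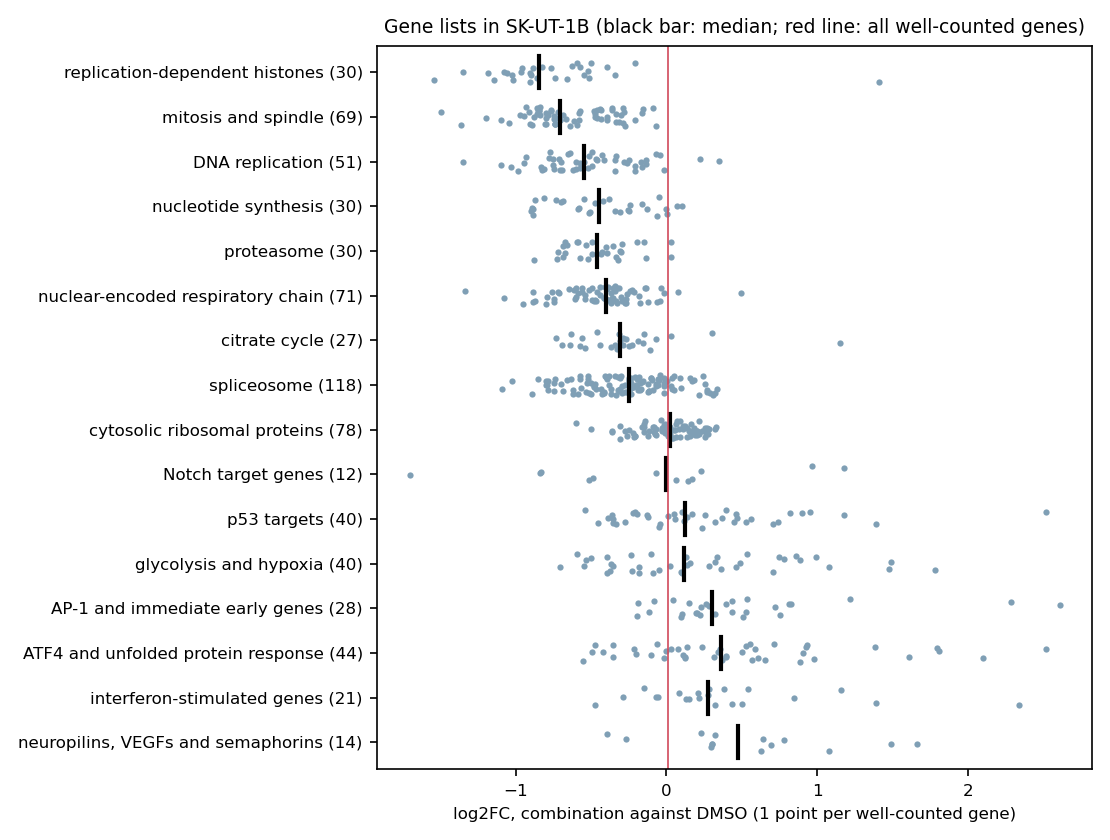
Log2FC of the combination against DMSO (x axis) for the well-counted members of 16 gene lists, with 1 point per gene, a black bar at the median of each list, and the number of members in parentheses. The red line is the median of all well-counted genes, and the scatter of points within a row is only for display. Histone, mitosis, and DNA replication genes lie mostly to the left of the line, ribosomal proteins lie around it, and the stress lists spread to the right with a few far members.

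In the stress and hypoxia lists, a few members lay far above the rest. Of 28 well-counted AP-1 and immediate early genes, 11 lay above both controls (39.3%, against 21.5% of all well-counted genes) and 1 below, with a median log2FC of 0.30, and EGR1 was the one called, against 0.351% of all well-counted genes called upregulated. That median was 0.19 without library 3-1 and 0.36 without 3-3. JUN, a subunit of AP-1, was at 2.56 and 3.69 CPM after DMSO and at 4.26 and 10.5 CPM after the combination (log2FC 1.22 ± 0.33, edgeR adjusted p = 0.144). The log2FC of JUN was 1.71 without library 3-1 and 0.44 without 3-3. Of 40 well-counted genes of glycolysis and hypoxia, 14 lay above (35.0%) and 4 below, and NDRG1 was the one called. AK4, BHLHE40, and NDUFA4L2 are not in this list. The median log2FC of the 40 genes of glycolysis and hypoxia was 0.12, and -0.08 without library 3-3. PDK1, the kinase that shuts pyruvate out of the citrate cycle, was at 35.5 and 34.3 CPM against 59.9 and 59.8 CPM (log2FC 0.78 ± 0.23, edgeR adjusted p = 0.141). ADM, a vasodilator peptide induced by hypoxia, was at 3.53 and 9.10 CPM against 18.6 and 16.8 CPM (log2FC 1.48 ± 0.38, edgeR adjusted p = 0.0846). Of the 14 well-counted neuropilins, VEGFs, semaphorins, and their receptors, 10 lay above both controls (71.4%) and 1 below (7.14%, against 21.4% of all well-counted genes), with a median log2FC of 0.48, and SEMA3D was the one called. That median was 0.30 without library 3-1 and 0.66 without DMSO 4-1. SEMA7A, which was downregulated, is not in this list.

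The treated libraries did not differ from the controls to the same extent, and library 3-1 stood apart. In it, 195 well-counted genes were more than 2-fold above each of the other 3 libraries and 169 more than 2-fold below, whereas these numbers were 11 and 35 in 3-3, 13 and 99 in DMSO 4-1, and 3 and 27 in DMSO 4-2. More than 2-fold differences between replicates occurred in 870 genes after the combination and in 355 after DMSO. The change was farther from 0 in 3-1 than in 3-3 for 42 of the 51 higher and 26 of the 31 lower genes. Genes of the ATF4 and unfolded protein response showed the split most plainly, with a median log2FC of -0.46 without 3-1 and 0.87 without 3-3, so the direction of this list turned with the library. PPP1R15A, which restarts translation after stress, was at 22.6 and 24.9 CPM after DMSO and at 88.8 and 34.9 CPM after the combination (log2FC 1.38 ± 0.34, edgeR adjusted p = 0.138). VEGFA, the angiogenic growth factor, was at 30.3 and 31.6 CPM against 135 and 39.0 CPM (log2FC 1.49 ± 0.47, edgeR adjusted p = 0.282). GDF15, a secreted stress cytokine, had 185 and 358 counts after DMSO and 2855 and 376 after the combination, and it was picked out after its values were seen. What set library 3-1 apart was not tested. Without it, 53 of the 82 genes kept an adjusted p under 0.05 and the same sign, without 3-3 all 82 did, without DMSO 4-1 57 did, and without DMSO 4-2 68 did. NDRG1, EGR1, NMNAT1, AK4, SLC16A4, PCMTD1, BHLHE40, CHST11, H3C2, BZW2, SELENOW, and RRM2 are the 12 genes that kept an adjusted p under 0.05 in 10 of the 11 alternative settings of the test, all except edgeR restricted to the 4 libraries.

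**Figure D4:**
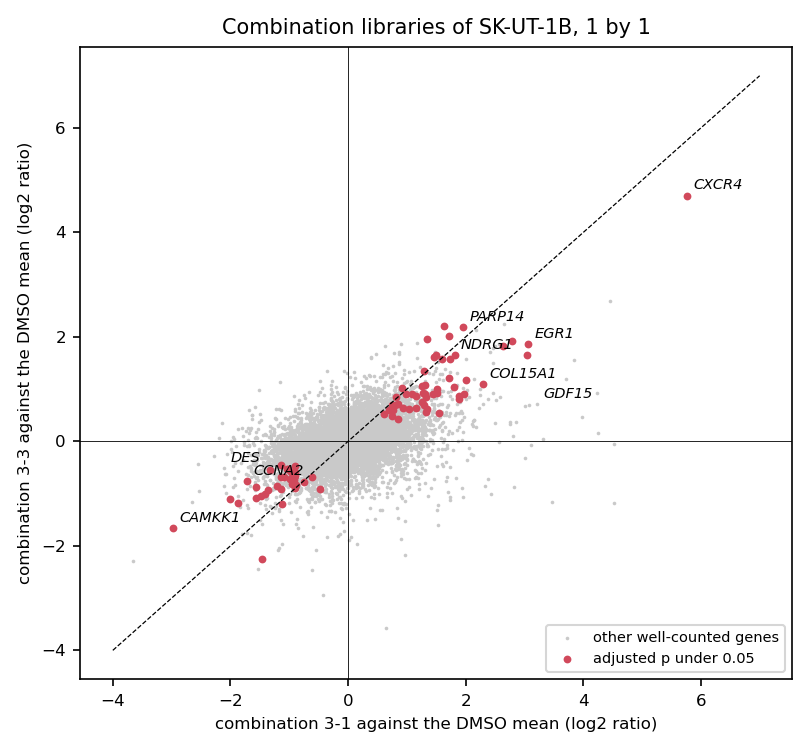
Log2 ratio of each combination library to the mean of the DMSO libraries (CPM with 0.5 added), with 3-1 on the x axis, 3-3 on the y axis, and 1 point per well-counted gene. Red points are the 82 genes with an adjusted p under 0.05, and the dashed line marks equal change in both libraries. The change was farther from 0 in 3-1 than in 3-3 for 42 of the 51 higher and 26 of the 31 lower genes, and GDF15 is high in 3-1 alone.

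The same combination was also given to SK-LMS-1, and the difference between the lines was tested in the same fit. An absolute log2 difference of at least 1 with an adjusted p under 0.05 held for 15 well-counted genes (0.142%). PARP14 had a log2FC of 2.34 in SK-UT-1B and 0.00 in SK-LMS-1 (difference 2.34 ± 0.32), and NDRG1 had 1.78 and -0.42 (difference 2.21 ± 0.27). Both genes were taken up for their change in SK-UT-1B, and PARP14 was well counted only through the SK-UT-1B combination libraries, so these differences are given as a description. For CCNA2 and RRM2 the difference was -0.86 and -0.47 with an edgeR adjusted p of 0.600 and 0.665, so the fall in these genes was not shown to differ between the lines. CDKN1A had a log2FC of 1.18 in SK-UT-1B and 0.29 in SK-LMS-1 (edgeR adjusted p of the difference 0.600).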

How the data were processed

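Total RNA was sequenced as stranded, ribosome-depleted libraries. According to the submitters' processing notes and the study's methods, the authors used Trim Galore 0.3.7 to trim the reads, STAR 2.7.9a to align them to hg38 and to count them on genes, and SortMeRNA to take out ribosomal RNA. The deposited values are these raw counts, not normalized. The annotation, the strand setting, and any removal of duplicate reads are not given in the sources used here, which makes counts of overlapping genes uncertain and lets amplification repeat molecules. Columns were matched to samples by treatment and library numbers, and those of SK-LMS-1 carry no line name.

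All 12 libraries were fitted in 6 groups of 2 with edgeR 4.0.16 (R 4.3.3, TMM, filterByExpr, robust quasi-likelihood), since the 4 SK-UT-1B libraries alone leave 2 residual degrees of freedom. Differential expression followed the study's thresholds, and p-values were adjusted over 21114 genes by Benjamini-Hochberg. Names and coordinates were taken from GENCODE v44, in which 60463 of 60649 identifiers were found. On simulated data for this comparison with 21114 genes, the test recovered 39% of 100 genes changed by 1 and 78% of 100 changed by 2 on the log2 scale, and 7.14% of its calls were not among them. The simulation gave each gene the same spread in every group and held no library that stood apart. These shares may therefore not hold for the real libraries. Reads per molecule were estimated from the share of genes at 0 counts.

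The well-counted genes, the 55 gene lists, and the tests were chosen with earlier results of these data known, and lists are described by counts and medians without a test. Most text names come from a fixed rule. It takes the top 20 and bottom 20 called genes by log2FC and all well-counted genes with an adjusted p under 0.05. It also takes the 3 members with the smallest p in each list described, and all well-counted Notch ligands, receptors, proteases, and targets. The 5 genes with the smallest p above a mean of 5000 counts, and cell markers, complete it. DTX4 and TUBA1B were named as the lowest of their lists by log2FC, RRM2B as the highest of its list, and GDF15 after its values were seen. Alternatives used DESeq2 1.42.0, its size factors, other count filters, counts divided by reads per molecule, the 4 libraries alone, and each library left out. A group that lost a library added nothing to the spread, which then came from the other groups. Sequence reads were not used here, and a few items are not reported here.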

Additional observations from a re-analysis of the deposited data

Results flagged for a closer look

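For 10 well-counted genes that the text or the naming rule takes up, the interaction term of the edgeR fit, adjusted over all genes, picked out a difference between the lines in the effect of the combination. The genes had been taken up for their values in SK-UT-1B, so the differences are given as a description. The difference is the log2FC in SK-UT-1B minus that in SK-LMS-1, and none of these genes passed the test in SK-LMS-1 itself. It was 7.74 for CXCR4, 3.65 for COL15A1, and 3.00 for NMNAT1. It was 2.38 for EGR1, 2.34 for PARP14, 2.21 for NDRG1, and 1.53 for CHST11, a chondroitin sulfotransferase. It was -1.27 for ANXA1, -1.84 for H2BC18, and -2.29 for HEBP1. COL15A1 had a log2FC of 1.85 in SK-UT-1B and -1.80 in SK-LMS-1, and ANXA1, a membrane-binding protein of inflammation, had -0.89 and 0.38. CXCR4, NMNAT1, and PARP14 were well counted in SK-UT-1B only through the combination libraries, and HEBP1 only through the DMSO libraries. All groups held 2 libraries, so outlying libraries within a group were not tested.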

How the results depend on the processing

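No paired analysis was possible because the SK-UT-1B groups share only 1 replicate number. Upregulated and downregulated genes over all tested genes, and then among well-counted genes, numbered 235, 134, 76, and 27 with DESeq2 on 12 libraries, and 259, 161, 99, and 39 with no filter beyond 1 count. They numbered 31, 9, 22, and 5 with a mean of at least 50 counts. DESeq2 on the 4 libraries called 31 and 17 over all genes, and 26 and 13 among well-counted genes. With edgeR on the 4 libraries they were 0, 0, 0, and 0, with 1245 genes at an unadjusted p under 0.05. Counts divided by reads per molecule gave 57 and 38 well-counted genes. Of the 50 well-counted genes called in the main fit, 18 were also called with DESeq2 on the 4 libraries. With a mean of at least 50 counts, 27 of them were. Leaving out one library gave 157 to 561 upregulated and 153 to 495 downregulated genes over all tested genes, and 40 to 306 and 35 to 310 among well-counted genes, with the highest numbers without combination library 3-3 (561, 495, 306, and 310). Without 3-1 they were 157, 171, 40, and 35, without DMSO 4-1 245, 153, 82, and 46, and without DMSO 4-2 388, 160, 150, and 39. The 15 genes that differed between the lines became 118 to 495 in this way, an alternative chosen after seeing the data, with 118 without 3-1, 495 without 3-3, 124 without DMSO 4-1, and 161 without DMSO 4-2. The cause of these differences was not tested. All 50 called well-counted genes kept their sign in all 11 alternatives, and 23 to 50 remained called when one library was left out. Depth limits genes near the minimum of 200 counts, which rest on an estimated 8.73 to 12.6 molecules.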

Other observations

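Histones that are made outside S phase were also lower in values, with 6 of 11 well-counted members below both DMSO libraries (54.5%, against 21.4% of all well-counted genes), 2 above, and a median log2FC of -0.46, and none passed the test. That median was -0.18 without library 3-1 and without DMSO 4-2, and -0.24 after transcript length, GC percent, and mean level had been regressed out. MACROH2A1, a histone variant of inactive chromatin, was at 206 and 233 CPM after DMSO and at 113 and 163 CPM after the combination (log2FC -0.67 ± 0.18, edgeR adjusted p = 0.118). Of 25 well-counted genes of the BCL2 family and caspases, 6 lay above both controls (24.0%, against 21.5% of all well-counted genes) and 2 below, and the median log2FC was -0.04, with 0.12 without DMSO 4-2. CASP9, the initiator caspase of the mitochondrial pathway, was at 6.30 and 6.50 CPM against 12.8 and 14.4 CPM (log2FC 1.09 ± 0.38, edgeR adjusted p = 0.238). Of 27 well-counted tubulins and microtubule regulators, the targets and partners of docetaxel, 4 lay above (14.8%) and 8 below (29.6%, against 21.4%), with a median log2FC of -0.05 (-0.35 without library 3-3). TUBA1B, an alpha tubulin and the lowest of this list by log2FC, was at 1032 and 917 CPM against 256 and 732 CPM (log2FC -0.98 ± 0.40, edgeR adjusted p = 0.444). MAPT, the microtubule-binding protein tau, was at 5.33 and 8.91 CPM against 11.6 and 19.6 CPM (log2FC 1.13 ± 0.32, edgeR adjusted p = 0.133).

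Of 32 well-counted genes of sterol synthesis and SREBP2 targets, 10 lay above both controls (31.2%, against 21.5% of all well-counted genes) and 4 below (12.5%, against 21.4%), with a median log2FC of 0.13. That median was 0.05 without DMSO 4-1, without DMSO 4-2, and without library 3-3, and 0.12 without library 3-1. ABCA1, which the list also holds, was the one called, against 0.351% of all well-counted genes called upregulated. TM7SF2, a sterol reductase, was at 2.46 and 3.61 CPM after DMSO and at 6.12 and 12.4 CPM after the combination (log2FC 1.60 ± 0.41, edgeR adjusted p = 0.0900), while ACAT2, which makes acetoacetyl-CoA, was at 72.0 and 68.7 CPM against 25.1 and 48.2 CPM (log2FC -0.94 ± 0.28, edgeR adjusted p = 0.151). TGFB1, the growth factor of fibrosis, was at 107 and 70.7 CPM against 46.7 and 62.1 CPM (log2FC -0.70 ± 0.19, edgeR adjusted p = 0.111).

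Just inside the minimum of 200 counts were SYT2, MUC20-OT1, and HOXA10, with a mean of 200 in the higher group. Just outside was ATF3, a stress-induced transcription factor, with 126 and 60 counts after DMSO and 381 and 18 counts after the combination.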
